A study of Mus musculus with 52 samples.

Results

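Creatine metabolism was followed through 6 mouse genes: Gamt and Gatm, which encode the enzymes of creatine synthesis, Slc6a8, which encodes the creatine transporter, and Ckm, Ckb and Ckmt2, which encode creatine kinases. They were picked by symbol, as the rows of the count table whose Ensembl identifiers map to these names, with no threshold on any value. The choice was made with earlier results of these data known, among them the lower Gamt of unloaded muscle. Levels and their order are therefore a description, and the p-values, taken from the fit over all genes, are not independent evidence. All 6 were found among the 55487 genes of the table, and all 6 were among the 16668 genes with enough counts to test. Each was detected in all 52 libraries.

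The RNA came from the gastrocnemius, a calf muscle, of male C57BL/6 mice aged 22 to 24 months, in 13 groups of 4 libraries. All groups share strain, sex, age and tissue, and the labels name no transgene or knockout. HU stands for hindlimb unloading, in which the hind legs bear no weight, and RL7 and RL14 for mice that bore weight again for 7 or 14 d after it (reloading). AMB marks ambulatory mice, the baseline. At HU, RL7 and RL14 the drinking water held metformin (M), leucine (L) or both (ML), or was plain water (W), and the ambulatory mice drank plain water (AMB_W). Metformin, used against diabetes, acts on cellular energy metabolism, and the amino acid leucine is a signal for protein synthesis. There was no ambulatory group with a drug or amino acid, so an effect of a drink in muscle that was never unloaded is not part of the design. A library is named by its group and the replicate number of its title, as in HU_W 2. The labels do not say whether each library is 1 mouse, so errors and p-values measure the spread between libraries.

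Creatine carries energy in muscle as phosphocreatine. GATM joins arginine and glycine into guanidinoacetate, and GAMT methylates guanidinoacetate to creatine with S-adenosylmethionine as the methyl donor. These steps are best known from kidney and liver, and muscle takes up much of its creatine from blood through SLC6A8, a sodium- and chloride-dependent transporter. The muscle kinase CKM regenerates ATP at the myofibrils, the mitochondrial kinase CKMT2 makes phosphocreatine where ATP is produced, and CKB is the cytosolic kinase known best from brain.

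The 8 muscle fibre markers were above 0 in all 52 libraries, and their summed level ran from 65688 to 112218 CPM (a count relative to its library's total and TMM factor). Total counts ran from 15605044 to 32492548 per library, which leaves Gamt, Gatm and Ckb with few counts: Gamt had 12 to 369 counts in a library, Gatm 20 to 250 and Ckb 6 to 71. The liver transcript Alb exceeded 16 CPM in 12 libraries, and 9 of 10 liver markers were at 0 in at least 1 library. HU_W 1, HU_W 2 and RL14_W 5 are among the 12, so a fit without them has fewer libraries in HU_W and RL14_W. Gamt had a median of 3.77 CPM, with a range of 0.885 to 13.7 CPM, in those 12 libraries and a median of 4.37 CPM, with a range of 0.853 to 12.4 CPM, in the other 40. Gatm had medians of 5.71 CPM in the 12 and 4.08 CPM in the 40.

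The genes lie on separate chromosomes. On GRCm38, GENCODE vM21 places Gamt (ENSMUSG00000020150) at chr10:80258151-80261012 on the minus strand, Gatm (ENSMUSG00000027199) at chr2:122594467-122611303 on the minus strand, and Slc6a8 (ENSMUSG00000019558) at chrX:73673150-73682502 on the plus strand. It places Ckm (ENSMUSG00000030399) at chr7:19404776-19422841 on the plus strand, Ckb (ENSMUSG00000001270) at chr12:111669361-111672338 on the minus strand and Ckmt2 (ENSMUSG00000021622) at chr13:91853387-91876885 on the minus strand. All are protein coding, and counts cover exons. Exons of Ckm overlap those of A930016O22Rik and exons of Ckmt2 overlap those of 1700119I11Rik, in both cases on the opposite strand. Since the sources used here do not give the strand setting of the counting, part of the counts of Ckm and Ckmt2 could belong to these partners.

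The promoters of Gamt, Ckm and Ckmt2 are shown, whose highest group means were in RL7_L, RL7_ML and RL7_W, in that order. None of these means stood above the next group by more than the larger SD of the pair. RefSeq (GRCm38.p6) gave 5 of the 6 genes, all but Slc6a8. Each line holds the 250 bases before the RefSeq start, 5′ to 3′ on the strand of the gene, with the E-box letters CANNTG in capitals. E-boxes are the letters that myogenic factors such as MyoD are known to bind. The windows are chr10:80261013-80261262 on the minus strand for Gamt, chr7:19410844-19411093 on the plus strand for Ckm and chr13:91876886-91877135 on the minus strand for Ckmt2. The RefSeq start of Ckm lies inside the span that GENCODE gives the gene.
Gamt: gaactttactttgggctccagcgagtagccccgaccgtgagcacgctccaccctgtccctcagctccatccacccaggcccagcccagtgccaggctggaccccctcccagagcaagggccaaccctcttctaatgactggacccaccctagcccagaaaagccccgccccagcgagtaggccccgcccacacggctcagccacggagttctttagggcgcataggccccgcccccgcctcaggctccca
Ckm: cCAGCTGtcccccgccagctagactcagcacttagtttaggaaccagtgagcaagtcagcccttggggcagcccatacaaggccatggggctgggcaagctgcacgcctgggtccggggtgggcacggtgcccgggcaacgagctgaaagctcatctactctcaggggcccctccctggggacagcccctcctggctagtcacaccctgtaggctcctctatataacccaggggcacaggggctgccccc
Ckmt2: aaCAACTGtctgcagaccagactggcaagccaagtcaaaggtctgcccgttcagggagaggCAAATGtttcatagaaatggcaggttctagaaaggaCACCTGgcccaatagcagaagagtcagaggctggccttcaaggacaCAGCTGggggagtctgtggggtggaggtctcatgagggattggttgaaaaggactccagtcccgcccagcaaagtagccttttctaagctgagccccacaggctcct
The Ckmt2 window held 4 E-boxes, at 248, 189, 153 and 107 bases before the start, the Ckm window 1, at 249 bases, and the Gamt window 0. The motif is its own reverse complement, so 1 search covers both strands. Of 32851 RefSeq windows of the same length, 66.2% held at least 1 E-box. GC boxes (GGGCGG on either strand) numbered 3 in the Gamt window, 0 in the Ckm window and 1 in the Ckmt2 window, and 32.7% of all windows held 1 or more. The letters TATAAA were in none of the 3 and in 12.4% of all windows. Each match is a description of the letters only.

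The transcripts differed in level by orders of magnitude. Per kilobase of exon, the median of the 13 group means was 2619 CPM for Ckm, 260.3 CPM for Ckmt2, 12.3 CPM for Slc6a8, 3.32 CPM for Gamt, 1.45 CPM for Gatm and 0.474 CPM for Ckb. Gamt varied most between groups: its highest group mean, in RL7_L, was 6.23-fold its lowest, in HU_L. The same ratio was 2.65 for Ckmt2 (RL7_W over HU_M), 2.35 for Ckb (RL7_M over HU_W), 2.25 for Gatm (RL14_L over HU_W), 2.19 for Slc6a8 (RL14_W over HU_M) and 1.67 for Ckm (RL7_ML over HU_L). The lowest group was therefore an unloaded one for every gene. In the order of group means, few neighbours stood apart by more than the larger of their SDs: 3 of 12 neighbouring pairs for Gamt, 1 of 12 for Slc6a8 and 0 of 12 for each of Gatm, Ckm, Ckb and Ckmt2.

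**Figure D1:**
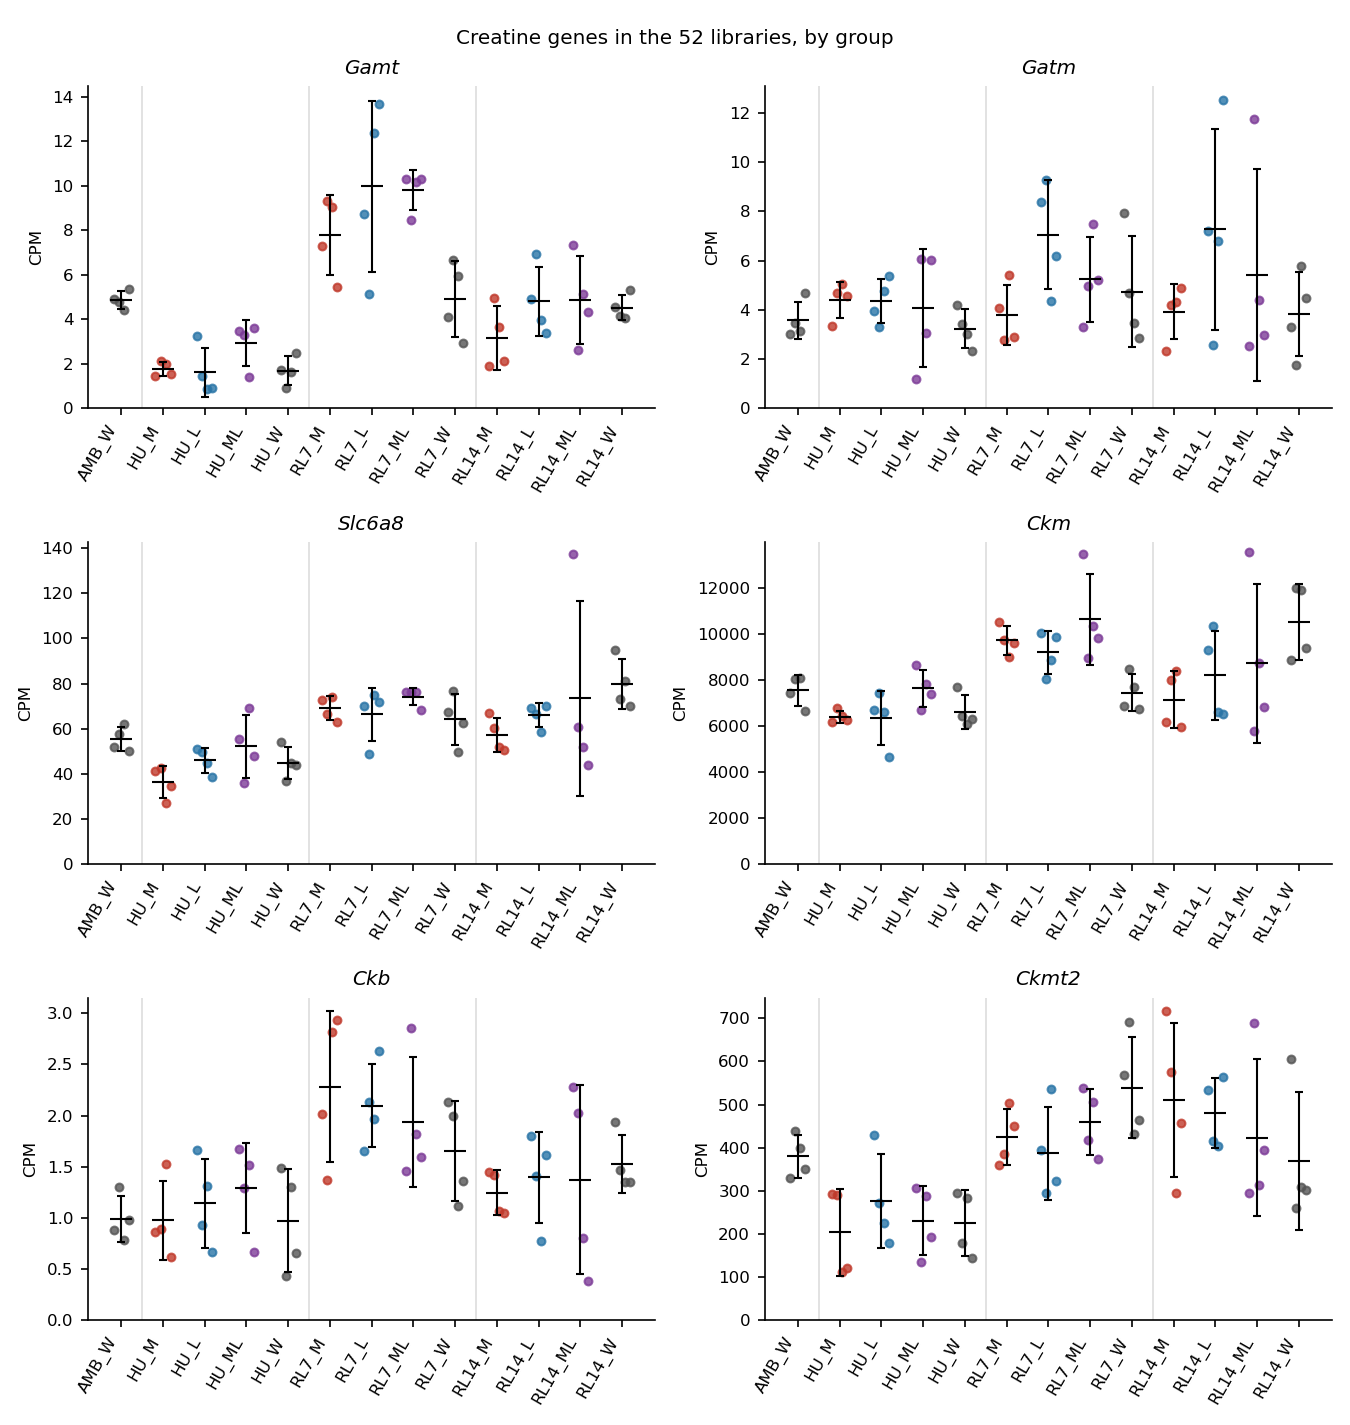
Level of each creatine gene (CPM, y axis from 0) in the 52 libraries. The groups stand on the x axis by time, with metformin (M), leucine (L) and both (ML) to the left of water (W). Points are libraries, and bars are the group mean and SD (n = 4). The 4 unloaded groups are the 4 lowest for Gamt, Slc6a8 and Ckmt2, and 3 of the RL7 groups are the 3 highest for Gamt.

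Gamt, the methyltransferase of the second synthesis step, was lower in unloaded muscle. It had 1.71, 0.922, 1.64 and 2.48 CPM in the HU_W libraries, against 4.89, 4.76, 4.43 and 5.36 CPM in the AMB_W libraries. Every HU_W library was below every AMB_W library. Gamt averaged 1.69 ± 0.635 CPM in HU_W and 4.86 ± 0.388 CPM in AMB_W (SD, n = 4 each), a log2 fold change of -1.52 ± 0.36 (SE), or 2.87-fold lower. This difference was among the results known when the genes were picked, so it is given as a description. In bulk muscle, fewer cells of a type and less RNA per cell cannot be told apart. Gamt was also the only 1 of the 6 that edgeR's quasi-likelihood test called here (Benjamini-Hochberg adjusted p = 0.00900), where 2.78% of all genes tested were called and 0.834% fell, and nothing is read from that share. The summed liver markers were 30.9 ± 27.7 CPM in HU_W and 13.1 ± 5.51 CPM in AMB_W, and 0 of the 10 passed the test. Their sums overlapped, from 7.92 to 66.1 CPM in HU_W and from 8.37 to 20.2 CPM in AMB_W. Other markers moved in the same comparison: 4 of 5 red blood cell markers rose, with a sum of 41.5 ± 13.4 CPM in HU_W and 4.20 ± 1.54 CPM in AMB_W. Of 5 fibroblast markers 2 fell, with a median log2 fold change of -0.59, and their sum was 426 ± 30.0 CPM in HU_W and 459 ± 65.6 CPM in AMB_W. The part of these markers in the level of Gamt was not tested. Without HU_W 2 the log2 fold change of Gamt had an adjusted p of 0.0625, and without the 12 libraries rich in Alb it was -1.23 with an adjusted p of 0.233. Over the 11 alternative settings it ran from -1.61 to -1.23.

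Gamt was higher in reloaded than in unloaded water-drinking mice, at both times of reloading. It had 4.11, 6.64, 5.95 and 2.92 CPM in RL7_W and 4.53, 4.16, 4.06 and 5.30 CPM in RL14_W. Each of these 8 libraries was above all 4 HU_W libraries, and both groups overlapped AMB_W. Gamt averaged 4.90 ± 1.70 CPM in RL7_W and 4.51 ± 0.560 CPM in RL14_W. Against HU_W, its log2 fold change was 1.53 ± 0.36 in RL7_W (edgeR, adjusted p = 0.00588) and 1.42 ± 0.36 in RL14_W (edgeR, adjusted p = 0.0104). Both comparisons share the HU_W libraries with the one that entered the choice of the genes. The red blood cell sum was 12.1 ± 3.29 CPM in RL7_W and 3.58 ± 0.711 CPM in RL14_W, below the HU_W mean given above, and its part was not tested. Against AMB_W the difference was 0.01 ± 0.33 in RL7_W and -0.10 ± 0.33 in RL14_W on the log2 scale, with 95% intervals of -0.65 to 0.67 and -0.77 to 0.56. The rise at 7 d lost its call without the libraries rich in Alb (1.24, adjusted p = 0.151), and the rise at 14 d lost it there too (1.02, adjusted p = 0.179) and without HU_W 2 (adjusted p = 0.0603). The libraries rich in Alb include HU_W 1 and HU_W 2. In a fit without them, fewer libraries and less liver RNA cannot be told apart.

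The 3 highest group means of Gamt were those of mice that drank metformin, leucine or both and had been reloaded for 7 d. At 7 d Gamt had 7.29, 9.31, 9.04 and 5.46 CPM in RL7_M, 8.74, 5.12, 12.4 and 13.7 CPM in RL7_L and 10.3, 8.44, 10.1 and 10.3 CPM in RL7_ML. All 4 RL7_ML libraries were above all 4 RL7_W libraries, while RL7_M and RL7_L overlapped RL7_W. In RL7_ML, 6.42% of all genes tested lay wholly above RL7_W. The log2 fold change against RL7_W was 0.66 ± 0.32 in RL7_M, 1.03 ± 0.32 in RL7_L and 1.00 ± 0.32 in RL7_ML. None passed edgeR's test, with adjusted p-values of 0.350, 0.393 and 0.380 in that order, and the 3 comparisons share the RL7_W libraries. With limma voom and quality weights, Gamt passed in RL7_L (1.00, adjusted p = 0.0334) and in RL7_ML (1.08, adjusted p = 0.00708). In unloaded mice, Gamt averaged 1.77 ± 0.322 CPM in HU_M, 1.601 ± 1.12 CPM in HU_L and 2.93 ± 1.04 CPM in HU_ML. HU_ML differed from HU_W by 0.79 ± 0.36 on the log2 scale (edgeR, adjusted p = 0.762). At 14 d the mean level of Gamt was 3.15 ± 1.43 CPM with metformin, 4.79 ± 1.55 CPM with leucine and 4.84 ± 1.97 CPM with both, and each group overlapped RL14_W.

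Gatm, the amidinotransferase of the first synthesis step, followed no such course. It had 4.19, 3.42, 3.00 and 2.31 CPM in HU_W, against 3.02, 3.46, 3.14 and 4.67 CPM in AMB_W, and the groups overlapped. The log2 difference was -0.14 ± 0.44, with a 95% interval of -1.03 to 0.74 that leaves room for a change of either sign. Gatm passed edgeR's test in none of the comparisons, and DESeq2 and voom did not call it either. Its highest group mean was in leucine-drinking mice after 14 d: it had 7.18, 2.57, 6.79 and 12.5 CPM in RL14_L, against 3.29, 1.76, 5.77 and 4.47 CPM in RL14_W. That is 0.93 ± 0.42 on the log2 scale (edgeR, unadjusted p = 0.0322, adjusted p = 0.248).

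Slc6a8, the transporter that brings creatine into the fibre, was highest in water-drinking mice after 14 d of reloading. It had 94.7, 73.3, 81.2 and 70.0 CPM in RL14_W, against 54.2, 36.8, 44.7 and 43.9 CPM in HU_W and 52.0, 57.8, 61.9 and 49.9 CPM in AMB_W. Every RL14_W library was above every HU_W and every AMB_W library. Slc6a8 averaged 79.8 ± 10.97 CPM in RL14_W, 44.9 ± 7.13 CPM in HU_W and 55.4 ± 5.46 CPM in AMB_W (SD, n = 4 each). It rose by 0.83 ± 0.21 on the log2 scale in RL14_W against HU_W (edgeR, adjusted p = 0.00937). Against AMB_W the difference was 0.53 ± 0.20 (edgeR, adjusted p = 0.175), and the difference between HU_W and AMB_W was -0.30 ± 0.21 (edgeR, adjusted p = 0.565). RL7_W lay between, with 67.5, 76.7, 49.7 and 62.5 CPM. The call against HU_W was lost without HU_W 2 (adjusted p = 0.0519) and without the libraries rich in Alb (0.89, adjusted p = 0.0606).

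Among the drinks, the lowest Slc6a8 mean at 14 d was that of metformin-drinking mice. Slc6a8 had 66.8, 60.2, 51.9 and 50.6 CPM in RL14_M, all below the RL14_W libraries, a log2 difference of -0.48 ± 0.20 that did not pass the test (edgeR, adjusted p = 0.144). RL14_ML ran from 43.96 CPM in RL14_ML 6 to 137 CPM in RL14_ML 1, with 60.5 and 52.0 CPM in the other 2 libraries. RL14_ML 1 was the highest of all 52 libraries for both Slc6a8 and Ckm. With it, Slc6a8 differed from RL14_W by -0.12 ± 0.20 (edgeR, adjusted p = 0.881). Without it, Slc6a8 was lower in RL14_ML than in RL14_W by a log2 fold change of -0.61 (edgeR, adjusted p = 0.00825), and Ckm by -0.56 (edgeR, adjusted p = 0.0151). Leaving out the highest library by itself lowers the RL14_ML means of both genes, so nothing is read from these p-values. Dixon's test for an outlying library, given below, did not flag RL14_ML 1 for Slc6a8 or Ckm. RL14_ML 1 also had 7026 CPM of Gm23935, against 46.6 to 156 CPM in the other 3 RL14_ML libraries. With 5.8S ribosomal RNA as a covariate and all libraries in, the RL14_ML differences ran the other way, at 0.40 for Slc6a8 (edgeR, adjusted p = 0.907) and 0.23 for Ckm (adjusted p = 0.941).

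Ckm, the kinase of the myofibrils and the most abundant of the 6 transcripts, changed over a narrow range. It had 8843, 11969.8, 11880.3 and 9383 CPM in RL14_W, against 7707, 6415, 6065 and 6277 CPM in HU_W and 7410.0, 8055, 8084 and 6648 CPM in AMB_W. Every RL14_W library was above every HU_W and AMB_W library, while HU_W and AMB_W overlapped. Ckm rose by 0.67 ± 0.18 on the log2 scale in RL14_W against HU_W, or 1.59-fold (edgeR, adjusted p = 0.0135). The difference from AMB_W was 0.48 ± 0.18 (edgeR, adjusted p = 0.155). In RL7_W, with 6866, 8458, 7675 and 6745 CPM, Ckm differed from HU_W by 0.17 ± 0.18 and from AMB_W by -0.02 ± 0.18. The call in RL14_W against HU_W was lost without HU_W 3, RL14_W 3 or RL14_W 4, with adjusted p-values of up to 0.0552. Markers moved in that comparison too, where 5.5% of all genes tested rose. Of 5 fast glycolytic fibre markers 2 rose (median log2 fold change 0.22), as did 3 of 6 endothelial and 2 of 5 fibroblast markers. All 5 red blood cell markers fell. The part of these markers in the level of Ckm was not tested.

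Ckm fell in metformin-drinking mice after 14 d of reloading. It had 6185, 7982, 8404 and 5958 CPM in RL14_M, all below the RL14_W libraries given above. The means were 7132 ± 1240.3 CPM in RL14_M and 10519 ± 1639 CPM in RL14_W. The log2 fold change was -0.56 ± 0.18, or 1.47-fold lower, with an adjusted p of 0.0499 that lies at the threshold (edgeR). The call was lost without any 1 of RL14_W 3, RL14_W 4, RL14_M 1, RL14_M 2 and RL14_M 6, with adjusted p-values of up to 0.195. It was also lost with RLE factors (-0.53, adjusted p = 0.0598), with no filter on low counts (-0.55, 0.0913), with the replicate block (-0.56, 0.0622) and without the libraries rich in Alb (-0.59, 0.0605). GC offsets and the 5.8S covariate removed the call too, with values given below. Of 5 fast glycolytic fibre markers 2 fell, where 3.58% of all genes tested fell, and their median log2 fold change was -0.50. Their sum was 78622 ± 13511.5 CPM in RL14_M and 88436 ± 14247 CPM in RL14_W. The libraries overlapped, from 68980 to 97708.6 CPM in RL14_M and from 69532.5 to 103192 CPM in RL14_W. Of 8 skeletal muscle fibre markers 1 rose and 0 fell. The slow fibre sum was 1086 ± 468 CPM in RL14_M and 389 ± 359 CPM in RL14_W, and 0 of 7 slow fibre markers passed the test. All 5 red blood cell markers rose, where 5.12% of all genes tested were called in either direction. Their sum was 28.2 ± 25.0 CPM in RL14_M and 3.58 ± 0.711 CPM in RL14_W. Mitochondrially encoded genes took 27.4, 20.2, 17.5 and 22.8% of the counts of the RL14_M libraries, against 10.9, 8.31, 8.97 and 11.7% in RL14_W. The part of these in the level of Ckm was not tested. At 7 d the direction was the other way: Ckm had 10529.5, 9714, 8986 and 9600.4 CPM in RL7_M, all above the RL7_W libraries, as 5.75% of all genes tested were, a log2 difference of 0.38 ± 0.18 (edgeR, adjusted p = 0.327). The metformin effect at 14 d minus that at 7 d was -0.95 ± 0.25 on the log2 scale (edgeR, adjusted p = 0.0119), a comparison added after the values were seen. In that difference 14.5% of all genes tested were called, and 8.59% were called in the direction of Ckm. Ckm was the only 1 of the 6 creatine genes called there, and Gamt stood at -1.18 (adjusted p = 0.0760). In RL7_ML, where Ckm averaged 10634 ± 1975 CPM, all 4 libraries were above RL7_W (0.52 ± 0.18, edgeR, adjusted p = 0.408).

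Ckmt2, the mitochondrial kinase, was highest in water-drinking mice after 7 d of reloading. It had 567, 692, 431 and 465 CPM in RL7_W, against 296, 178, 284 and 144 CPM in HU_W and 329.7, 439, 399 and 351 CPM in AMB_W. Every RL7_W library was above every HU_W library, and every HU_W library was below every AMB_W library. Ckmt2 rose by 1.26 ± 0.32 on the log2 scale in RL7_W against HU_W, or 2.39-fold (edgeR, adjusted p = 0.0145). In HU_W against AMB_W it differed by -0.75 ± 0.32 (edgeR, adjusted p = 0.261). In RL14_W it had 606, 261, 308 and 301 CPM, which overlapped AMB_W and, through RL14_W 3, HU_W. The rise at 7 d lost its call without HU_W 2, HU_W 4 or RL7_W 2, with adjusted p-values of up to 0.0771, and without the libraries rich in Alb (1.32, adjusted p = 0.116).

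Slow and blood vessel markers were set beside Ckmt2, since mitochondria-rich fibres and vessels go together in muscle. The summed level of 7 slow fibre markers was 645 ± 326 CPM in RL7_W and 836 ± 458 CPM in HU_W, and 0 of the 7 passed the test. The libraries overlapped, from 315 to 998 CPM in RL7_W and from 431 to 1239 CPM in HU_W. The 6 endothelial markers summed to 217 ± 32.03 CPM in RL7_W and 148 ± 15.5 CPM in HU_W, and 3 of the 6 rose, where 1.97% of all genes tested rose. None of the 6 was at 0 in any library. The part of slow fibre or vessel RNA in the level of Ckmt2 was not tested. In RL14_W the single high library, RL14_W 1, had 606 CPM of Ckmt2 and a slow fibre sum of 889 CPM, the highest of a group that reached down to 32.8 CPM. HU_W 1 and HU_W 3 had higher slow fibre sums, of 1227 and 1239 CPM, with 296 and 284 CPM of Ckmt2.

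Ckb, the cytosolic kinase of brain, was near the floor of detection. It ran from 0.386 to 2.93 CPM over the 52 libraries and averaged 2.28 ± 0.735 CPM in RL7_M, the highest group, 0.971 ± 0.504 CPM in HU_W, the lowest, and 0.988 ± 0.224 CPM in AMB_W. It passed edgeR's test in no comparison, while voom called it in RL7_W against HU_W (0.93, adjusted p = 0.0432) and in the difference between the effect of both drinks at RL14 and at HU (-1.44, adjusted p = 0.0428). In RL14_W it had 1.94, 1.47, 1.35 and 1.35 CPM, all above the 0.884, 1.302, 0.785 and 0.980 CPM of AMB_W, a log2 difference of 0.62 ± 0.38 (edgeR, adjusted p = 0.375). Ckmt1, the other mitochondrial creatine kinase, had too few counts to be tested.

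Among RL7_W, HU_W and AMB_W, the balance between the kinase transcripts moved with Ckmt2 more than with Ckm. Per kilobase, Ckm made up 87.6 ± 1.90% of the 3 kinase transcripts in RL7_W, 93.8 ± 1.85% in HU_W and 91.0 ± 0.722% in AMB_W (SD, n = 4 each). Ckmt2 made up 12.4 ± 1.90% in RL7_W, 6.22 ± 1.85% in HU_W and 8.97 ± 0.720% in AMB_W, and Ckb at most 0.0219% in any group mean. At 14 d the shares of Ckmt2 were 12.6 ± 4.94% in RL14_M and 6.68 ± 3.53% in RL14_W. Both kinases moved there: the log2 difference of RL14_M from RL14_W was -0.56 for Ckm and 0.47 for Ckmt2 (edgeR, adjusted p = 0.0499 and 0.380). The ratio of Ckm to Ckmt2 per kilobase was 7.22 ± 1.36 in RL7_W, 16.2 ± 5.10 in HU_W and 10.2 ± 0.934 in AMB_W. These shares follow from the levels above and were not tested.

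Counted over the 6 genes, the calls were few and mostly in comparisons with HU_W. In RL7_W against HU_W 2 of 6 rose, Gamt and Ckmt2, where 4.88% of all genes tested were called and 1.97% rose. In RL14_W against HU_W 3 of 6 rose, Gamt, Slc6a8 and Ckm, where 9.72% were called and 5.5% rose. In RL14_M against RL14_W 1 of 6 fell, Ckm, where 5.12% were called and 3.58% fell. The median log2 fold change of the 6 was 0.66 in RL7_W against HU_W, 0.69 in RL14_W against HU_W and -0.38 in RL14_M against RL14_W, beside 0.03, 0.03 and -0.01 over all genes. In RL7_W against HU_W 2 of 6 had no overlap between the groups and lay above, beside 8.39% of all genes, and in RL14_W against HU_W 3 of 6, beside 11.3%. In HU_W against AMB_W 2 of 6, Gamt and Ckmt2, lay wholly below, beside 6.17% of all genes, and in RL14_M against RL14_W 2 of 6, Ckm and Slc6a8, beside 10.5%. The lower Gamt of HU_W was known when the genes were picked, and each comparison with HU_W uses the same HU_W libraries. Nothing is therefore read from the counts and medians with HU_W beside the values over all genes.

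Apart from Ckm in the metformin effect at 14 d minus that at 7 d, given above, edgeR called 0 of the 6 in the remaining comparisons. Against AMB_W, that held in RL7_W, where 0% of all genes were called, and in RL14_W, where 0.174% were. In RL14_W against AMB_W 3 of 6 (Slc6a8, Ckm and Ckb) lay wholly above, beside 9.5% of all genes, 2 had an unadjusted p under 0.05 and voom called 2. In RL7_W against AMB_W 0 had such a p and voom called 0. In RL14_W against RL7_W, where 0.036% of genes were called, 1 of 6 (Ckm, 0.50 ± 0.18) had such a p and lay wholly above, beside 5.66% of all genes, and voom called 1. For the drinks, the background was 0% in HU_M, 0.006% in HU_L, 0.048% in HU_ML, 0.138% in RL7_M, 0.078% in RL7_L, 0.006% in RL7_ML, 0.294% in RL14_L and 0.714% in RL14_ML, each against water of the same time. The number of creatine genes with an unadjusted p under 0.05 was 0 in HU_M, HU_L and RL14_ML, 1 in HU_ML and RL7_L, and 2 in RL7_M, RL7_ML and RL14_L. Voom called 1 of 6 in RL7_L and 2 of 6 in each of RL7_ML and RL14_ML, and DESeq2 called 0 in all of these comparisons. The difference between a drink's effect at RL7 or RL14 and its effect at HU was called for 0 of the 6 genes in all 6 such tests by edgeR and by DESeq2. The share of all genes called was 0.03% and 0.024% for metformin at RL7 and RL14, 0.066% and 0.006% for leucine, and 0.012% and 0.96% for both. At most 1 creatine gene had an unadjusted p under 0.05, and voom called 1 for metformin and 3 for both, each at RL14. For leucine and for both, the effect at RL14 minus that at RL7 was called by edgeR for 0 of the 6, where 1.08% and 1.93% of all genes were called. There an unadjusted p under 0.05 was found for 2 of the 6 with leucine and for 1 with both. DESeq2 called 0 for leucine and 1 for both, and voom 1 for leucine and 3 for both.

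**Figure D2:**
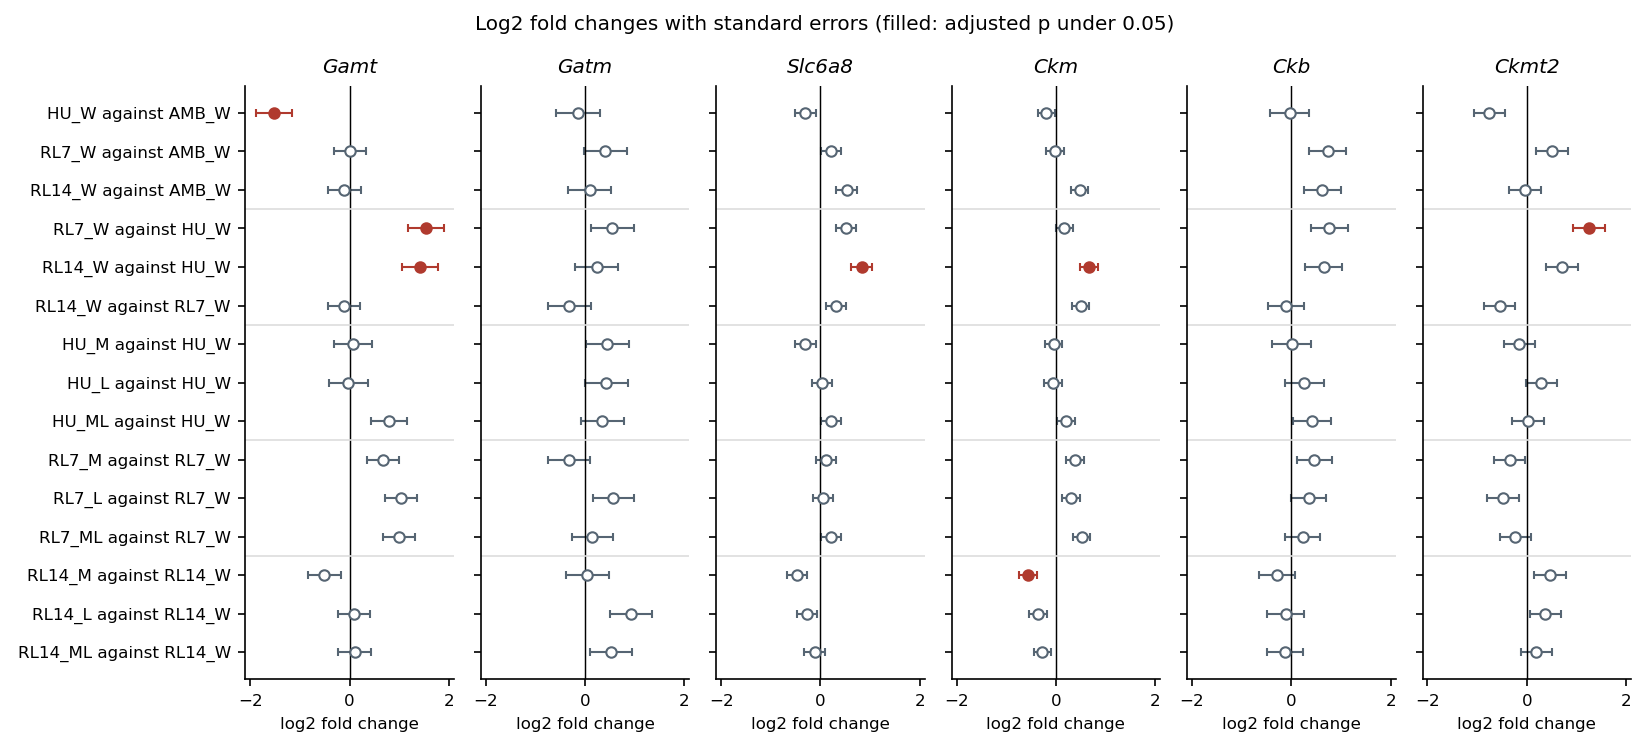
Log2 fold change (x axis) of the 6 creatine genes in 15 comparisons (y axis), with the SE of edgeR as bars. Filled red points have an adjusted p under 0.05 over all genes. The 7 filled points are Gamt in 3 comparisons, Ckm in 2, and Slc6a8 and Ckmt2 in 1 each.

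Over the 13 group means, Slc6a8 and Ckm had a Pearson r of 0.881, Gamt and Ckm 0.862 and Gamt and Slc6a8 0.831. Ckmt2 had 0.796 with Slc6a8, 0.711 with Gamt and 0.508 with Ckm, while Gatm had between 0.235 and 0.459 with the other 5. These values describe group means that share the scaling of their libraries. Among 10337 genes, those whose group means were most like Ckm were Map3k10 (r = 0.986), Podxl2 (0.986) and Samd1 (0.984). Gamt was most like Pigs (0.975), Plcd4 (0.975) and Sypl2 (0.97), and Slc6a8 most like Inppl1 (0.973), Znrf1 (0.972) and Tspan15 (0.968). Ckmt2 was most like Kdr (0.982), Sdhb (0.97) and Fads6 (0.969), Ckb most like Ifi27 (0.968), Mcam (0.966) and Cavin1 (0.964), and Gatm most like Kif1a (0.899) and Megf9 (0.872). Kdr encodes a receptor of the endothelium, and Sdhb a subunit of succinate dehydrogenase in mitochondria.

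A 5.8S ribosomal RNA gene was lowest in the groups with the most Ckm. The gene n-R5-8s1, for the 5.8S ribosomal RNA that depletion is meant to remove, averaged 0.718 ± 0.299 CPM in RL14_W, 0.771 ± 0.272 CPM in RL7_L, 0.904 ± 0.537 CPM in RL7_M and 1.76 ± 1.26 CPM in RL7_ML. These 4 groups with the least of it were the 4 with the most Ckm, and 3 of them were among the 4 highest for Gamt, for Slc6a8 and for Ckb. The 5.8S gene averaged 18.4 ± 5.00 CPM in RL14_M, 10.3 ± 2.76 CPM in HU_W and 11.3 ± 3.37 CPM in AMB_W. Gm23935 ran the other way, with means of 116 CPM in RL14_W, 135 CPM in RL7_L, 134 CPM in RL7_M and 151 CPM in RL7_ML. It averaged 56.2 CPM in RL14_M, 39.2 CPM in HU_W and 44.5 CPM in AMB_W. With the 5.8S level as a covariate, Ckm changed by -0.09 in RL14_M against RL14_W (edgeR, adjusted p = 0.999) and by 0.28 in RL14_W against HU_W (adjusted p = 0.999). In RL14_W against HU_W, Slc6a8 then changed by 0.43 (adjusted p = 0.999) and Gamt by 0.88 (adjusted p = 0.985). The covariate differs between the same groups as the genes do, so they cannot be told apart there. In HU_W against AMB_W the 5.8S levels overlapped, and Gamt changed by -1.54 (adjusted p = 0.00817) under that fit.

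**Figure D3:**
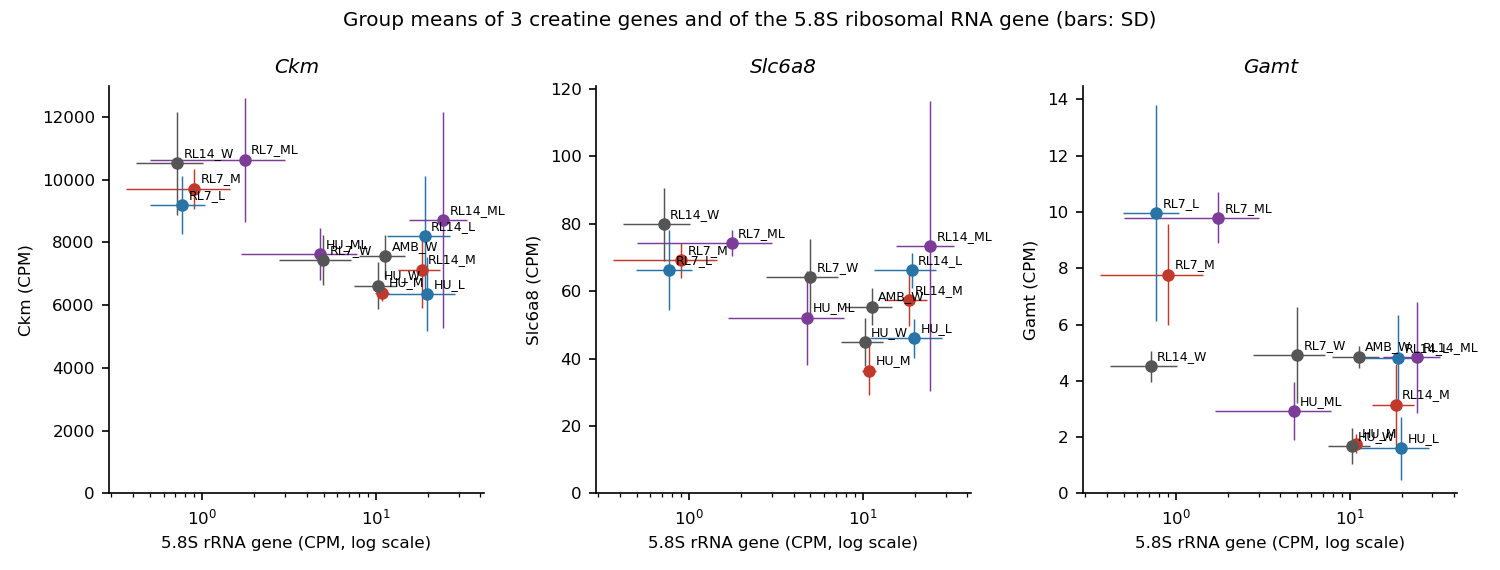
Group means of Ckm, Slc6a8 and Gamt (CPM, y axes from 0) against the group mean of a 5.8S ribosomal RNA gene (CPM, log x axis), with SD bars (n = 4). The 4 groups with at most 1.76 CPM of 5.8S RNA have the 4 highest means of Ckm, while Gamt in RL14_W, at 4.51 CPM, does not stand with the other 3.

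GC content moved with the same comparisons. The longest transcript of Ckb has 61.7% GC, that of Gamt 59.7%, Slc6a8 56.8%, Ckm 54%, Ckmt2 50.5% and Gatm 43.2%, against a median of 48.7% over the genes tested. In RL14_W against HU_W, the tenth of genes with the most GC (1665 genes, from 57.3%) had a median log2 fold change of 0.47 and the tenth with the least (1665 genes, up to 40.2%) a median of -0.20. In RL14_M against RL14_W these medians were -0.42 and 0.21, and in HU_W against AMB_W -0.02 and -0.01. With offsets for GC, an alternative added after the values were seen, Ckm changed by -0.38 in RL14_M against RL14_W (edgeR, adjusted p = 0.122) and by 0.47 in RL14_W against HU_W (adjusted p = 0.0356). Slc6a8 changed by 0.50 (adjusted p = 0.0130) and Gamt by 0.98 (adjusted p = 0.0691) in RL14_W against HU_W. The metformin effect on Ckm at 14 d minus that at 7 d was -0.63 (adjusted p = 0.0506) with the offsets and -0.24 with the 5.8S covariate.

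**Figure D4:**
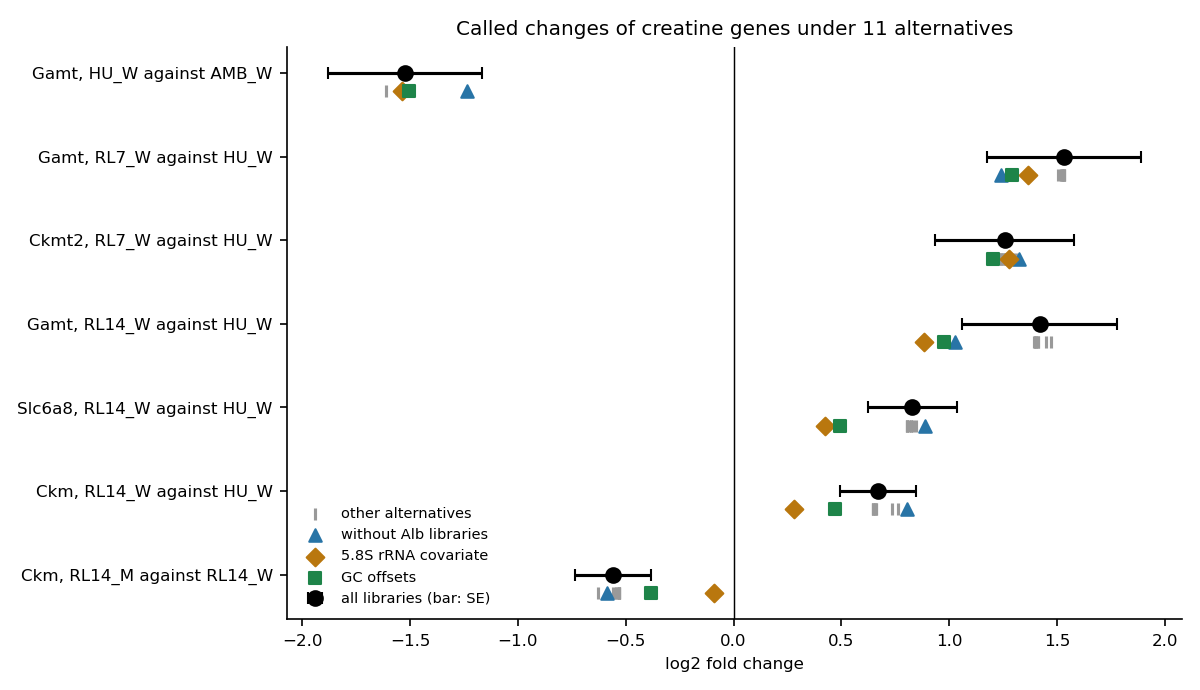
Log2 fold changes (x axis) of the 7 called pairs of gene and comparison (y axis), with all libraries (black, SE bars) and under 11 alternatives. Squares show GC offsets, diamonds the 5.8S covariate, triangles the fit without the 12 libraries rich in Alb and ticks the other alternatives. Ckm in RL14_M against RL14_W lies between -0.63 and -0.09, and every value keeps its sign.

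Around the pathway, the energy transfer partners of creatine kinase gave the most calls in RL14_W against HU_W. The share of all genes called was 2.78% in HU_W against AMB_W, 4.88% in RL7_W against HU_W, 9.72% in RL14_W against HU_W and 5.12% in RL14_M against RL14_W. In HU_W against AMB_W 0 of 15 tested partners rose and 1 fell: Ampd1, the muscle AMP deaminase, had 568 ± 61.7 CPM in HU_W and 906 ± 103 CPM in AMB_W (log2 fold change -0.67, edgeR, adjusted p = 0.0170). In RL14_W against HU_W 3 of 15 rose, where 5.5% of all genes rose, and 1 fell. Ampd1 was at 871 ± 168 CPM in RL14_W and 568 ± 61.7 CPM in HU_W (0.62, adjusted p = 0.0188). Ak1, the cytosolic adenylate kinase, was at 913 ± 102 CPM and 648 ± 65.0 CPM in the same groups (0.49, adjusted p = 0.0397), and Ampd2, another AMP deaminase, at 3.10 ± 0.271 CPM and 1.61 ± 0.337 CPM (0.95, adjusted p = 0.0184). Slc25a5, an ADP/ATP carrier of the inner mitochondrial membrane, fell (-0.44, adjusted p = 0.0492). In RL7_W against HU_W 1 of 15 rose, Ak3, the adenylate kinase of the mitochondrial matrix (0.37, adjusted p = 0.0352), and 0 fell. In RL14_M against RL14_W 0 rose and 1 of 15 fell, Atp2a1, the calcium pump of fast fibres, with 14061 ± 2210.5 CPM in RL14_M and 20415 ± 3142 CPM in RL14_W (-0.54, adjusted p = 0.0395). The median of the 15 was -0.01 in HU_W against AMB_W and 0.13 in RL14_W against HU_W, beside -0.01 and 0.03 over all genes. In the metformin effect at 14 d minus that at 7 d, where 14.5% of all genes were called and 8.59% were lower, 2 of 15 were lower, Ak1 (-0.75, adjusted p = 0.0223) and Atp2a1 (-0.92, adjusted p = 0.00842). Of the 5 M-band genes, whose proteins form the line at the sarcomere centre that CKM binds, 1 was called between groups: Myom1 fell in RL7_W against HU_W (-0.43, adjusted p = 0.0418). In the difference between the metformin effects it was Obsl1 (-1.10, adjusted p = 0.0477).

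Genes that supply the substrates of creatine synthesis gave few calls. Of 14 methyl donor and homocysteine genes, all tested, 0 passed in HU_W against AMB_W and in RL7_W against HU_W. Ahcy, which clears the S-adenosylhomocysteine that GAMT leaves behind, was the 1 of 14 that rose in RL14_W against HU_W and the 1 of 14 that fell in RL14_M against RL14_W. It averaged 9.58 ± 1.80 CPM in RL14_M, 16.1 ± 1.86 CPM in RL14_W and 10.7 ± 1.74 CPM in HU_W. Its log2 fold change was -0.75 in RL14_M against RL14_W (edgeR, adjusted p = 0.0202) and 0.58 in RL14_W against HU_W (adjusted p = 0.0413). These counts of 1 in 14 are near the shares over all genes, of which 3.58% fell and 5.5% rose. In the metformin effect at 14 d minus that at 7 d, Ahcy was lower (-0.95, adjusted p = 0.0164), as was Bhmt, a gene of liver (adjusted p = 0.0497). There 8.59% of all genes and 4 of 10 liver markers were lower, and the part of liver RNA was not tested. For both drinks Ahcy was lower by the same kind of test at 14 d minus HU (-1.39, adjusted p = 0.00378) and at 14 d minus 7 d (-1.04, adjusted p = 0.0278). Of the arginine, ornithine and glycine supply genes, 12 of 14 could be tested. Shmt2, the mitochondrial serine hydroxymethyltransferase that makes glycine, rose in RL14_W against HU_W, with 13.9 ± 1.44 CPM in RL14_W and 8.92 ± 0.957 CPM in HU_W (0.64, adjusted p = 0.0184). Oat, ornithine aminotransferase, fell in RL14_ML against RL14_W (-0.45, adjusted p = 0.0445). Of 9 other SLC6 transporters 5 could be tested, and 1, the glycine transporter Slc6a9, fell in RL14_M against RL14_W, with 2.57 ± 1.09 CPM in RL14_M and 5.48 ± 1.36 CPM in RL14_W (-1.10, adjusted p = 0.0295). Slc6a9 was also lower in the metformin effect at 14 d minus that at 7 d (-1.38, adjusted p = 0.0270). Arg2, Gldc, Slc6a4, Slc6a12 and Slc6a20a had too few counts to be tested.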

How the data were processed

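Per the labels, total RNA of gastrocnemius muscle was made into stranded libraries after ribosomal RNA depletion. The authors deposited 1 table of raw counts per Ensembl gene, whole numbers with no normalization. Per the submitters' processing notes, reads were handled with STAR 2.7.3a, with featureCounts 1.6.3 and with DESeq2 1.30.0 on the GRCm38 build. The strand setting and annotation release are not given in the sources used here. Symbols and positions came from GENCODE vM21 by identifier, and 55227 of 55487 identifiers matched.

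The counts went into edgeR 4.0.16 (R 4.3.3). After filterByExpr at a minimum count of 10, which left 16668 genes, libraries were scaled by TMM, and a robust quasi-likelihood model of 13 group means took in all 52 libraries (39 residual degrees of freedom). The Benjamini-Hochberg adjustment ran over all 16668 genes in each comparison, and a call is an adjusted p under 0.05. The SE of a log2 fold change comes from the F statistic. CPM are counts over the library total times its TMM factor, and CPM per kilobase divides by exon length. Groups were read from titles. The genes, the pathway and marker lists, the comparisons and the rule for named genes (list members by smallest p among calls, at most 3 in each direction, and the 3 genes with the highest r to each creatine gene) were chosen with earlier results of these data known. Alternatives were DESeq2 1.42.0, voom of limma 3.58.1 with quality weights, RLE factors, no filter on low counts, a fit restricted to the groups compared, the replicate number as a block, leaving out libraries, a 5.8S ribosomal RNA covariate and GC offsets. The steps were tested on simulated data. No 2 of the 78 replicate pairs looked like 1 library, with a lowest chi-square per degree of freedom of 6.63. Some results are not reported here.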

Additional observations from a re-analysis of the deposited data

Results flagged for a closer look

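In 78 sets of 4 libraries (6 genes in 13 groups), 4 held a library whose gap to the nearest other exceeded the 95% critical value of Dixon's test, and chance alone flags about 1 in 20 sets. Gamt was at 1.38 CPM in HU_ML 5, far below 3.29 to 3.59 CPM in the other 3 HU_ML libraries. Gamt was at 8.44 CPM in RL7_ML 3, below the 10.1 to 10.3 CPM of the others in its group. Slc6a8 was at 68.4 CPM in RL7_ML 6, below its neighbours at 76.1 and 76.2 CPM. Ckmt2 was at 606 CPM in RL14_W 1, above the 261 to 308 CPM of the other RL14_W libraries. The slow fibre marker sum of this library, 889 CPM, was the highest of its group but only rank 16 of the 52 libraries. Its part in the level of Ckmt2 was not tested. The effect of metformin on Ckm differed between the times of reloading by a test of the difference itself: the effect at 14 d minus the effect at 7 d was -0.95 on the log2 scale (edgeR, adjusted p = 0.0119). In this difference 14.5% of all genes tested were called. The call on Ckm was lost with GC offsets (-0.63, adjusted p = 0.0506) and with the 5.8S covariate (-0.24).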

How the results depend on the processing

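Values are the number of the 6 creatine genes called, and no value called by edgeR with all libraries changed sign under an alternative. Among those called only under an alternative, Slc6a8 and Ckm in RL14_ML against RL14_W ran from -0.58 to 0.40 and from -0.54 to 0.23, and Slc6a8 in RL14_M against RL14_W reached 0.02 with the 5.8S covariate. In HU_W against AMB_W 1 became 2 with voom and 0 without the libraries rich in Alb (0 to 1 leaving out 1 library). In RL14_W against AMB_W 0 became 2 with voom, in the fit of only these groups and without RL14_ML 1 and RL14_ML 6. In RL7_W against HU_W 2 became 4 with voom and 0 without the Alb libraries (1 to 2 leaving out 1). In RL14_W against HU_W 3 became 1 without the Alb libraries and 0 with the 5.8S covariate (1 to 3 leaving out 1). In RL14_W against RL7_W and in RL7_L against RL7_W 0 became 1 with voom, and in RL7_ML against RL7_W it became 2 with voom and 1 in the fit of only these groups. In RL14_M against RL14_W 1 became 2 with voom, in the fit of only these groups and without RL14_ML 1 and RL14_ML 6. It became 0 with RLE factors, no filter on low counts, the 5.8S covariate, GC offsets, without the Alb libraries, without RL7_M 4 and with the replicate block (0 to 1 leaving out 1). In RL14_ML against RL14_W 0 became 2 with voom (0 to 2 leaving out 1). For drink effects at RL14 minus those at HU, 0 became 1 for metformin and 3 for both with voom, and 1 for both without RL14_ML 1 and RL14_ML 6 (0 to 2 leaving out 1). For drink effects at RL14 minus those at RL7, the 1 call for metformin became 3 with voom, 2 in the fit of only the groups compared, and 0 with the 5.8S covariate or GC offsets (1 to 2 leaving out 1). For leucine 0 became 1 with voom and without RL14_ML 1 and RL14_ML 6. For both drinks 0 became 3 with voom, 2 without those libraries, and 1 with DESeq2 or the replicate block (0 to 2 leaving out 1). The cause of these shifts was not tested. The replicate numbers pair no libraries (11 of 52 correlated best with a library of their own number), and the replicate block moved no other count. Group means moved by less than their SD for 78 of 78 with RLE factors and 71 of 78 with no TMM factor. Depth limits Ckb, with 6 to 71 counts a library: the SE of its log2 fold changes between groups was 0.35 to 0.39, and that of Gatm 0.41 to 0.44.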
